A study of Pardosa pseudoannulata with 6 samples.

Results

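The genes described here are 121 clusters of the wolf spider Pardosa pseudoannulata selected by best-hit words and Pfam domains of immune recognition proteins: peptidoglycan recognition proteins, fibrinogen-related lectins, thioester proteins, Toll receptors with their ligands and signalling partners, and lysozymes. The words and domains also took in some clusters named for other proteins, described below, among them 6 that entered through another sense of the word dorsal. They were all taken from a table of 75542 assembled genes, of which 53182 were tested. A cluster entered by 1 of 6 Pfam domains (amidase of peptidoglycan recognition proteins, C-type lectin, fibrinogen, the alpha-2-macroglobulin family domain, the Toll/interleukin receptor domain TIR, c-type lysozyme) or by a word in its best-hit name. The words were toll-like, relish, dorsal, spaetzle, MyD88, techylectin, alpha-2-macroglobulin and lysozyme. Of 146 rows that matched, 5 named a toxin or venom, 7 had a Drosophila best hit, and 13 lay under 0.5 FPKM (fragments scaled to gene length and library size) in too many libraries. The rule asked for at least 0.5 FPKM in at least 3 of the 6 libraries. Just inside it, 13 members reached that level in exactly 3 libraries, with means of 0.455 to 4.26 FPKM, and 3 of these did so through dsNC alone. These 3 were Cluster-8110.1112, Cluster-8845.0 and Cluster-8110.9915. Entering that way places them below dsNC in every dsFactin library. Just outside, 8 clusters reached it in exactly 2 libraries, with means of 0.315 to 1.73 FPKM. Of the members, 44 entered by a domain, namely 24 by the TIR domain, 11 by the alpha-2-macroglobulin domain and 9 by the amidase domain. The other 77 entered by words alone, and no member carried the C-type lectin, fibrinogen or c-type lysozyme domain in its Pfam column, so the lectins here are lectins by best-hit name.

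The libraries came from 2 groups. The dsFactin group (3 libraries) had RNA interference by microinjected double-stranded RNA against the F-actin gene. The dsNC group (3 libraries) was microinjected with a double-stranded RNA called NC, an abbreviation the labels do not spell out. Both groups were also treated with cadmium at a dose and time that the labels do not give, so the comparison is between the 2 injected RNAs. The tissue label reads Individual, with no age, sex or stage, and no label says whether replicates were separate or pooled animals. The p-values therefore refer only to the spread among these libraries, which may be technical.

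Arthropods have no antibodies and recognise microbes with proteins fixed in the genome. Peptidoglycan recognition proteins bind the bacterial cell wall, fibrinogen-related lectins such as the techylectins of horseshoe crabs bind acetylated sugars on microbes and clump bacteria, and thioester proteins either trap proteases (alpha-2-macroglobulin) or attach to microbial surfaces as relatives of complement. In Drosophila, recognition leads to cleavage of the ligand Spaetzle, which activates the receptor Toll, the adaptor MyD88 and the NF-kappa-B factor Dorsal. In horseshoe crabs, blood cells and plasma are known sources of lectins and clotting proteins.

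The libraries held about 16300000 to 17800000 fragments in dsFactin and 15700000 to 17700000 fragments in dsNC, estimated from the spacing of low values. Genes above 0 numbered 47167 to 55781 in dsFactin and 57714 to 61503 in dsNC. Actin-87E (Cluster-8110.35523), a transcript of the family of the injected RNA, was at 338, 397 and 558 FPKM in dsFactin and 880, 1119 and 1057 FPKM in dsNC (log2 -1.26 ± 0.21, SE, adjusted p = 0.0675). The labels do not say which actin transcript the injected RNA matched. Markers of several organs were present in every library. The 78 haemocyte and haemolymph markers, led by the oxygen carrier hemocyanin, summed to 47012 to 56136 FPKM in dsFactin and 73430 to 90396 FPKM in dsNC. The 94 muscle markers summed to 5479 to 6594 FPKM in dsFactin and 9994 to 11819 FPKM in dsNC. The 186 cuticle and epidermis markers summed to 8675 to 29676 FPKM in dsFactin and 29628 to 34996 FPKM in dsNC. The 59 yolk and lipid carrier markers summed to 17708 to 28299 FPKM in dsFactin and 11968 to 16202 FPKM in dsNC. In material of this kind, fewer cells of a type and less RNA per cell cannot be told apart, and the part of these markers in the values below was not tested.

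Across the 121 members, none passed the test, and the median difference was close to that of all genes. In limma with Benjamini-Hochberg adjustment over all 53182 genes, 0 members were higher and 0 lower in dsFactin at an adjusted p under 0.05, while 0.496% of all genes passed, 0.0771% as higher and 0.419% as lower. The smallest adjusted p among members, 0.0682, belonged to Cluster-8110.41502, 1 of the 6 that are not immune proteins by name. At an unadjusted p under 0.05, 38 members were reached, 9 higher (7.44% of members, against 4.53% of all genes) and 29 lower (24% of members, against 14.8% of all genes). All 3 dsFactin libraries lay above all 3 dsNC libraries in 9 members (7.44%, against 5.98% of all genes) and below them in 36 (29.8%, against 21.5% of all genes). The 36 include the 3 that entered through dsNC alone. Of those, Cluster-8110.1112 and Cluster-8845.0 are also among the 29 lower at an unadjusted p under 0.05. The median log2 difference was -0.29 over members and -0.27 over all genes. After median-ratio rescaling these medians were -0.06 and -0.09, and after quantile normalization -0.02 and 0.01. The sign of 18 members turned under median-ratio rescaling and of 25 under quantile normalization. Among genes with a mean of at least 5 FPKM, a stricter filter, 3 of the 53 members tested passed, all lower (4.15% of all genes then passed as lower and 1.91% as higher). Summed over members, FPKM was 3032, 2671 and 2796 in dsFactin and 2720, 2426 and 2663 in dsNC, which is 0.222 to 0.294% of each dsFactin library and 0.219 to 0.245% of each dsNC library.

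**Figure D1:**
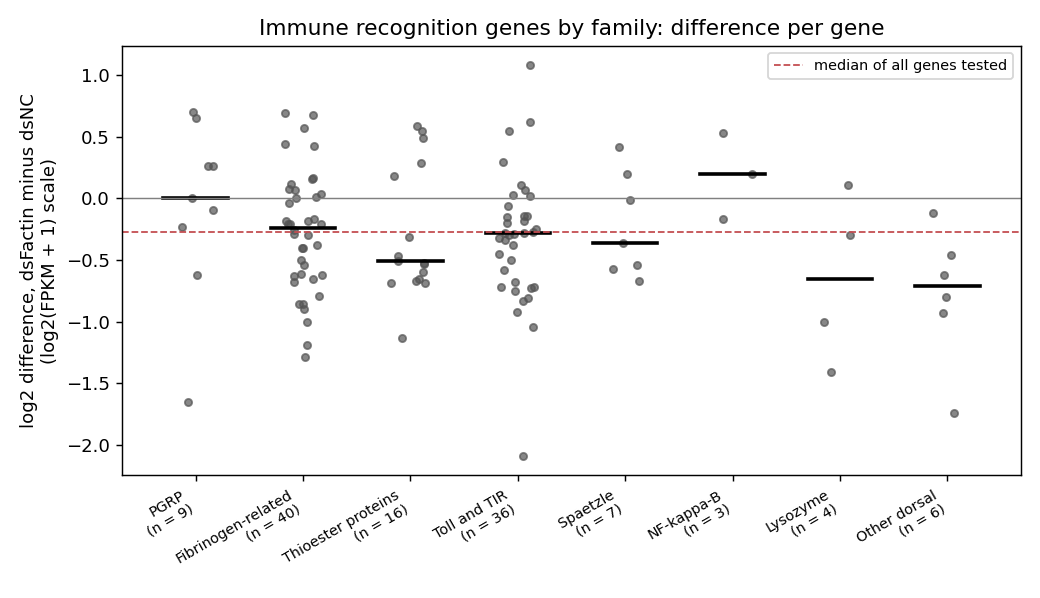
Log2 difference (dsFactin minus dsNC, on the log2(FPKM + 1) scale) of each of the 121 members by family, with the family median as a black bar and the median of all genes tested (-0.27) as a dashed line. Every family but the 6 genes taken in by the word dorsal holds points on both sides of 0, and the points reach from -2.09 to 1.08, both in the Toll and TIR family. The lowest point, Cluster-8110.36274, is at -0.76 without dsFactin replicate 3. The highest point, Cluster-578.0, rests on an estimated 3, 2 and 3 fragments in dsFactin and 0, 0 and 1 in dsNC.

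Fibrinogen-related proteins were the largest family, with 40 clusters, and held 65.6 to 71% of the members' summed FPKM in dsFactin and 61.8 to 65.2% in dsNC. The 3 most abundant were at higher values in dsFactin, while 27 of the 40 were at lower values. Of all 53182 genes tested, 38067 were at lower values. Techylectin-5A-like Cluster-8110.31914, the most abundant member of the whole set, was at 815, 528 and 847 FPKM in dsFactin and 522, 444 and 376 FPKM in dsNC. The groups did not overlap, but the lowest dsFactin library lay only just above the highest dsNC library, and the log2 difference was 0.69 ± 0.23 (SE, adjusted p = 0.185). This 1 cluster, of 420 bases, made up 19.8 to 30.3% of the members' FPKM in dsFactin and 14.1 to 19.2% in dsNC, and its FPKM rests on few positions because it is short. Techylectin-5A Cluster-8110.41289 was at 188, 178 and 157 FPKM in dsFactin and 120, 97.2 and 136 FPKM in dsNC, again without overlap (log2 0.57 ± 0.16, adjusted p = 0.134). Techylectin-5A Cluster-8110.35056 was at 275, 130 and 212 FPKM in dsFactin and 140, 115 and 115 FPKM in dsNC. There dsFactin replicate 2 lay inside the dsNC range, and the log2 difference was 0.68 ± 0.28 (adjusted p = 0.254).

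A lectin with a Techylectin-5B hit was lower in dsFactin. Cluster-8110.35705 was at 39.2, 35.4 and 42 FPKM in dsFactin and 80, 76.2 and 59 FPKM in dsNC. All 3 dsFactin libraries were below the lowest dsNC library, with a log2 difference of -0.86 ± 0.15 (adjusted p = 0.0728), the smallest adjusted p of the family (0.043 under the stricter filter). Cluster-8110.40768, of 4515 bases and also a Techylectin-5B hit, was at 1.35, 1.94 and 1.04 FPKM in dsFactin and 4.01, 3.29 and 2.96 FPKM in dsNC (log2 -0.86 ± 0.23, adjusted p = 0.127). These values rest on an estimated 102, 135 and 71 fragments in dsFactin and 265, 226 and 221 in dsNC. All 3 dsFactin libraries lay above dsNC in 2 of the 40 clusters (5%, against 5.98% of all genes) and below in 7 (17.5%, against 21.5%), shares near or under those of all genes. The family median was -0.24, but quantile normalization gave -0.07 and median-ratio rescaling 0.04, so no direction of the family held under both. The 40 clusters drew on 22 distinct best hits, and 10 of them shared a single techylectin-5A-like protein of the spider Stegodyphus dumicola. No source used here says how reads were divided among such similar sequences, and values of single techylectins are uncertain for that reason. Summed over the family, FPKM was 2154, 1752 and 1952 in dsFactin and 1773, 1501 and 1646 in dsNC, with dsFactin replicate 2 inside the dsNC range.

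Peptidoglycan recognition proteins numbered 9 and lay on both sides of dsNC. The most abundant, Cluster-8110.34509, was at 59.4, 58 and 87.5 FPKM in dsFactin and 41.8, 36.3 and 50.2 FPKM in dsNC. Its groups did not overlap (log2 0.65 ± 0.21, SE, adjusted p = 0.173). Cluster-8110.35674 was at 39.6, 30.4 and 44.1 FPKM in dsFactin and 29.9, 28.4 and 35.5 FPKM in dsNC, with overlap (log2 0.26 ± 0.18, adjusted p = 0.46). Cluster-8110.31628 was at 31.8, 22.4 and 30.8 FPKM in dsFactin and 33, 34.2 and 32.2 FPKM in dsNC. Its log2 difference of -0.23 ± 0.16 (adjusted p = 0.472) became 0.08 after median-ratio rescaling.

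Another protein of this family differed widely among the dsFactin libraries. Cluster-8110.31183, which shares its best hit with Cluster-8110.31628, was at 0.62, 8.44 and 0.71 FPKM in dsFactin and 7.63, 6.45 and 11.6 FPKM in dsNC. Replicates 1 and 3 of dsFactin held an estimated 9 fragments each, against 81 to 161 in dsNC, while replicate 2 held 109. The log2 difference was -1.65 ± 0.70 (adjusted p = 0.268) over all libraries and -2.48 ± 0.28 without dsFactin replicate 2 (adjusted p = 0.0299). Replicate 2 was the dsFactin library inside the dsNC range. Leaving it out widens the difference by construction, so the second p gives no separate support. Of the 9, 5 were at higher and 4 at lower values, dsFactin lay above dsNC in 1 and below in 2 (all genes 5.98% and 21.5%), and the median was 0.00 (0.20 after median-ratio rescaling and 0.26 once quantile-normalized). Cluster-8110.1112, among the 2 below, entered through dsNC alone.

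**Figure D2:**
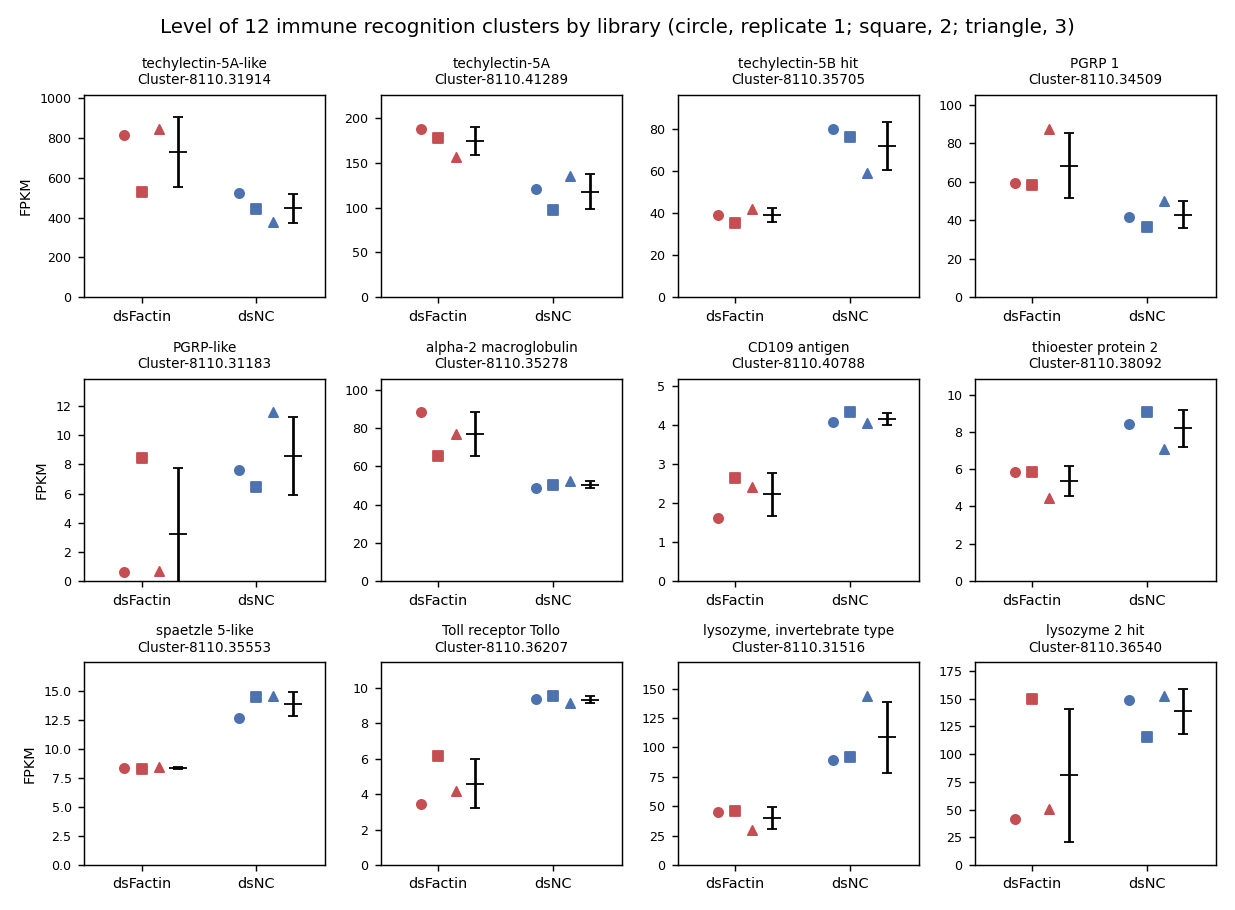
FPKM of 12 members in each library, dsFactin (red) left of dsNC (blue), with a marker shape per replicate number and a bar for mean ± SD (n = 3, cut at 0). Alpha-2 macroglobulin Cluster-8110.35278 lies higher in all 3 dsFactin libraries than in dsNC (65.3 to 88.4 against 48.6 to 52.3 FPKM), CD109 Cluster-8110.40788 lies lower in all 3 (1.61 to 2.65 against 4.06 to 4.32 FPKM), and in PGRP Cluster-8110.31183 and lysozyme Cluster-8110.36540 dsFactin replicate 2 lies within the dsNC range.

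The 16 thioester proteins were divided by best hit into protease-trapping and complement-like proteins, a division made after the values were seen. The 3 most abundant clusters had an alpha-2 macroglobulin best hit. Cluster-8110.35278, the longest of them at 4082 bases, was at 88.4, 65.3 and 77.2 FPKM in dsFactin and 48.6, 50.1 and 52.3 FPKM in dsNC. Every dsFactin library exceeded every dsNC library (log2 0.59 ± 0.14, SE, adjusted p = 0.104). Cluster-8110.27093 was at 96.3, 65.5 and 99.2 FPKM in dsFactin and 58.6, 64.3 and 59.1 FPKM in dsNC (log2 0.49 ± 0.18, adjusted p = 0.218). Cluster-8110.31072 was at 66.1, 47.6 and 48.7 FPKM in dsFactin and 41, 43.2 and 47.2 FPKM in dsNC (log2 0.29 ± 0.16, adjusted p = 0.386), without overlap by a margin smaller than the spread within either group. These 3 share 1 best hit with 3 further clusters of 356 to 511 bases, and whether they are pieces of the same gene is not known, so they are not 3 independent observations. Another alpha-2-macroglobulin, Cluster-8110.26011, was lower in dsFactin, at 31, 27.9 and 23.9 FPKM in dsFactin and 31.8, 46.5 and 38.4 FPKM in dsNC (log2 -0.47 ± 0.18, adjusted p = 0.228). Of the 7 clusters with such a hit, 4 were at higher and 3 at lower values, and the median was 0.18.

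The complement-like proteins were 4 long clusters, of 5039 to 8413 bases, and all 4 were below dsNC in every dsFactin library, as were 21.5% of all genes and 44.7% of tested genes of at least 3000 bases. Thioester-containing protein 2, Cluster-8110.38092, was at 5.84, 5.84 and 4.43 FPKM in dsFactin and 8.42, 9.05 and 7.1 FPKM in dsNC (log2 -0.53 ± 0.18, adjusted p = 0.185). A CD109 hit, Cluster-8110.40788, was at 1.61, 2.65 and 2.4 FPKM in dsFactin and 4.07, 4.32 and 4.06 FPKM in dsNC (log2 -0.69 ± 0.20, adjusted p = 0.15). CD109 is a membrane-linked thioester protein of vertebrates. The macroglobulin complement-related Cluster-8110.37980 was at 9.05 ± 2.47 FPKM in dsFactin and 13 ± 1.22 FPKM in dsNC, and the second CD109 hit, Cluster-8110.39641, at 0.853 ± 0.172 FPKM in dsFactin and 1.82 ± 0.266 FPKM in dsNC (SD, n = 3). The 4 differences ran from -0.69 to -0.51, and all 4 were negative under both rescalings. Summed over these 4, FPKM was 15.4, 17.8 and 19.3 in dsFactin and 26.5, 29.8 and 25.3 in dsNC. Summed over the 7 alpha-2 macroglobulin clusters, it was 291, 236 and 255 in dsFactin and 195, 214 and 217 in dsNC.

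The remaining 5 clusters of the thioester family are not clear thioester proteins. The alpha-2-macroglobulin receptor-associated protein, Cluster-8110.38072, a chaperone of lipoprotein receptors that entered by its name, was at 21.8, 16.8 and 22.8 FPKM in dsFactin and 13.7, 14.5 and 12.5 FPKM in dsNC (log2 0.55 ± 0.16, adjusted p = 0.146). Cluster-8110.38588 has a protein O-mannosyltransferase as best hit, and 3 clusters have the domain but no best hit. Over all 16, dsFactin lay above dsNC in 4 (25%, against 5.98% of all genes) and below in 7 (43.8%, against 21.5%). These shares depend on level and length. Among all genes with a mean of at least 50 FPKM, 31.5% lay above. Among tested genes of at least 3000 bases, 44.7% lay below, and 8 of the 16 are that long. The median of the 16 was -0.51 (-0.23 after median-ratio rescaling and -0.28 once quantile-normalized). It was 0.23 over the 8 clusters kept by the stricter filter, so the family's direction depends on that filter.

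Clusters with a Spaetzle hit, the ligand family of Toll receptors in Drosophila, numbered 7, and those with a Spaetzle 5 hit were lower in dsFactin without overlap. Cluster-8110.35553 was at 8.37, 8.28 and 8.4 FPKM in dsFactin and 12.7, 14.4 and 14.5 FPKM in dsNC. The dsFactin values were nearly equal, and the difference exceeded the spread in dsNC (log2 -0.67 ± 0.13, SE, adjusted p = 0.08, or 0.0353 under the stricter filter). Cluster-8110.34988 was at 11.3, 16 and 15.4 FPKM in dsFactin and 19.2, 18.6 and 17.5 FPKM in dsNC (log2 -0.36 ± 0.16, adjusted p = 0.292). Cluster-8110.28374 was at 3.07, 3 and 3.82 FPKM in dsFactin and 4.91, 6.12 and 4.71 FPKM in dsNC (log2 -0.54 ± 0.18, adjusted p = 0.192). These 3 Spaetzle 5 hits also stayed negative after both rescalings, but their grouping was not set in advance. Over the 7 clusters, dsFactin lay below dsNC in 3 (42.9%, against 21.5% of all genes) and above in 0 (against 5.98%). Cluster-8110.28374 is 4197 bases long, and 44.7% of tested genes of at least 3000 bases lay below.

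Other ligands overlapped between groups. A Spaetzle 3 hit, Cluster-8110.21120, was at 3.21, 5.64 and 6.19 FPKM in dsFactin and 4.87, 5.86 and 4.06 FPKM in dsNC (log2 -0.01, 0.27 after either rescaling). Spaetzle 4, Cluster-8110.27426, was at 0.14, 9.72 and 0.26 FPKM in dsFactin and 0.56, 0.73 and 1.4 FPKM in dsNC. Replicate 2 of dsFactin stood apart with an estimated 459 fragments, against 7 and 12 in the other dsFactin libraries. The log2 difference was 0.42 ± 0.87 (adjusted p = 0.814) with that library and -0.64 without it. The spaetzle domain Cluster-8110.11978 was at 0.93, 0.61 and 2.23 FPKM in dsFactin and 0.74, 1.59 and 0.48 FPKM in dsNC (log2 0.20, -0.09 without dsFactin replicate 3), on 6 to 25 fragments per library.

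The Toll and TIR family held 36 clusters. Of these, 11 carried both the leucine-rich repeats of a receptor's outer part and the TIR domain that passes the signal on, and all 11 were at lower values in dsFactin as deposited, a subset chosen after the values were seen. At lower values were also 38067 of all 53182 genes, and 4910 of the 5949 tested genes of at least 3000 bases. After median-ratio rescaling 3 of the 11 were positive, and after quantile normalization 6. Toll-like receptor Tollo, Cluster-8110.36207, was at 3.45, 6.15 and 4.18 FPKM in dsFactin and 9.37, 9.54 and 9.15 FPKM in dsNC. The dsNC libraries were close together and all dsFactin libraries lay below them (log2 -0.92 ± 0.21, SE, adjusted p = 0.0995). Without dsFactin replicate 2, the highest of the dsFactin values, it was -1.11 ± 0.17 (adjusted p = 0.0453). A Toll hit, Cluster-8110.29764, was at 2.94, 3.02 and 2.28 FPKM in dsFactin and 5.15, 5.5 and 5.12 FPKM in dsNC (log2 -0.75 ± 0.17, adjusted p = 0.101). The most abundant receptor, Cluster-8110.40037, was at 13.6, 11 and 11.4 FPKM in dsFactin and 14.6, 14.7 and 14.1 FPKM in dsNC (log2 -0.25 ± 0.14, adjusted p = 0.367, 0.05 after median-ratio rescaling). In 6 of the 11 receptors all dsFactin libraries lay below dsNC (54.5%, against 21.5% of all genes and 44.7% of tested genes of at least 3000 bases), and in 0 above. The median length of the 11 was 4919 bases. Summed over the 11, FPKM was 27.5, 28.6 and 25 in dsFactin and 42.1, 42.2 and 39.5 in dsNC.

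The adaptor MyD88 and the factor Dorsal overlapped between groups. MyD88, which binds the TIR domain, had 2 clusters with the same best hit. Cluster-8110.36792 was at 28.8, 25.3 and 23.9 FPKM in dsFactin and 32.1, 30.8 and 27.4 FPKM in dsNC, with overlap (log2 -0.20 ± 0.13, adjusted p = 0.444, 0.11 after median-ratio rescaling). Cluster-8110.42891 was at 3.09 ± 0.189 FPKM in dsFactin and 3.65 ± 0.488 FPKM in dsNC (SD, n = 3, log2 -0.18, 0.07 after median-ratio rescaling and 0.13 once quantile-normalized). Dorsal, the NF-kappa-B factor, had 3 clusters. Cluster-8110.27647 was at 17.7, 19 and 27.5 FPKM in dsFactin and 17.3, 19.4 and 17.7 FPKM in dsNC (log2 0.20 ± 0.19, adjusted p = 0.584). Cluster-8110.40368 was at 6.18, 3.71 and 5.84 FPKM in dsFactin and 3.05, 3.84 and 2.96 FPKM in dsNC (log2 0.53 ± 0.23, adjusted p = 0.274). Cluster-8110.47397 was at 1.91 ± 0.212 FPKM in dsFactin and 2.29 ± 0.517 FPKM in dsNC (SD, n = 3, log2 -0.17, 0.05 after median-ratio rescaling and 0.16 once quantile-normalized). In all 5 of these clusters the groups overlapped.

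Clusters with repeats but no TIR domain numbered 11, and several are receptors by resemblance only. Short ones such as Cluster-8845.0 (521 bases) and Cluster-578.0 (405 bases) have a Toll best hit. Whether these are pieces of receptors is not known. Cluster-8110.38125, the most abundant of the family, was at 87.8, 104 and 91.2 FPKM in dsFactin and 65.6, 57.2 and 69.7 FPKM in dsNC. All dsFactin libraries were above dsNC (log2 0.55 ± 0.13, adjusted p = 0.104). Cluster-8110.36274 was at 32.1, 12.7 and 0.32 FPKM in dsFactin and 50.2, 35.4 and 23.9 FPKM in dsNC, a log2 difference of -2.09 ± 1.13 (adjusted p = 0.369), with dsFactin replicate 3 at an estimated 4 fragments. It was -0.76 ± 0.47 without that library and -3.08 without dsFactin replicate 1. Both were drawn in by a Toll-like receptor 9 hit in mouse, while their spider hits name a hypothetical protein and a neuronal leucine-rich repeat protein. A set of 13 clusters, both MyD88 clusters among them, had the TIR domain without repeats. Their best hits include calumenin, a laminin subunit and a sugar transferase, so the domain in those 3 lies in a cluster named for another protein. Over the 36, dsFactin lay above dsNC in 2 (5.56%, against 5.98% of all genes) and below in 11 (30.6%, against 21.5%). Cluster-578.0, among those above, held an estimated 3, 2 and 3 fragments in dsFactin and 0, 0 and 1 in dsNC. Cluster-8845.0 and Cluster-8110.9915, among those below, entered through dsNC alone. The median was -0.28 (-0.18 after median-ratio rescaling and 0.06 once quantile-normalized), and -0.62 with a pseudocount of 0.1, where that of all genes was -0.49.

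Lysozymes, which cut peptidoglycan and act as effectors, numbered 4, and the abundant pair was of the invertebrate type. Cluster-8110.31516 was at 44.7, 45.9 and 29.4 FPKM in dsFactin and 89.7, 92.2 and 144 FPKM in dsNC. All dsFactin libraries lay far below the lowest dsNC library, and the log2 difference was -1.41 ± 0.25 (SE, adjusted p = 0.0731, or 0.045 under the stricter filter). Cluster-8110.36540 was at 41.8, 150.1 and 50.9 FPKM in dsFactin and 149, 115 and 152 FPKM in dsNC. Replicates 1 and 3 of dsFactin lay far below all dsNC libraries and replicate 2 inside their range. The log2 difference was -1.0 ± 0.47 (adjusted p = 0.308), and -1.56 ± 0.18 without replicate 2 (adjusted p = 0.0303). Leaving out the library inside the dsNC range widens the difference by construction, so the second p gives no separate support. A putative lysozyme precursor, Cluster-8110.18469, was at 2.09 ± 0.622 FPKM in dsFactin and 3.11 ± 2.16 FPKM in dsNC (SD, n = 3, log2 -0.30, 0.02 after quantile normalization and 0.10 without dsNC replicate 1). The c-type lysozyme Cluster-8110.50142 was listed at 0, 5.17 and 0 FPKM in dsFactin and 0, 1.48 and 0.96 FPKM in dsNC. Summed over the family, FPKM was 89.1, 203 and 82.3 in dsFactin and 244, 210 and 299 in dsNC.

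**Figure D3:**
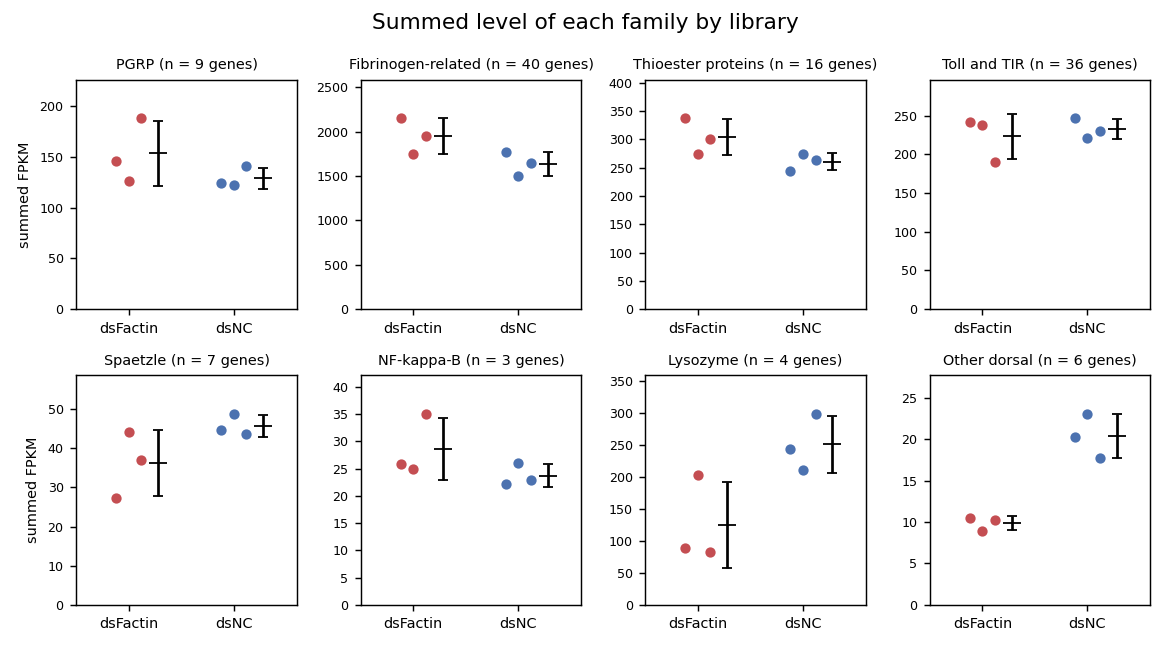
Summed FPKM of each family in each library, dsFactin (red) left of dsNC (blue), points in replicate order with a bar for mean ± SD (n = 3). The lysozyme sum is 82.3 and 89.1 in dsFactin replicates 3 and 1 but 203 in replicate 2, near the dsNC range of 210 to 299, and the fibrinogen-related sum is 1752 to 2154 in dsFactin against 1501 to 1773 in dsNC.

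A group of 6 members entered by the letters of dorsal in another sense and are not NF-kappa-B factors. They include the smallest adjusted p of the set: Cluster-8110.41502, a zinc finger MYM-type protein whose best hit is from the fly Bactrocera dorsalis, was at 0.41, 1.26 and 0.31 FPKM in dsFactin and 3.31, 4.94 and 5.09 FPKM in dsNC (log2 -1.74 ± 0.30, SE, adjusted p = 0.0682). With array weights, which give each library its own weight, it was the 1 member that passed (adjusted p = 0.0478), where 1.01% of all genes passed as lower and 0.312% as higher. A second cluster with that hit, Cluster-8110.38778, was at 2.06 ± 0.155 FPKM in dsFactin and 4.89 ± 0.885 FPKM in dsNC (SD, n = 3, adjusted p = 0.0884). Sog, Cluster-8110.30987, which binds bone morphogenetic proteins in Drosophila, was at 2.58, 1.88 and 2.03 FPKM in dsFactin and 3.82, 4.31 and 3.43 FPKM in dsNC (log2 -0.62 ± 0.19, adjusted p = 0.165). A tolloid hit, Cluster-8110.27669, of the proteases that cleave Sog, was at 4.12 ± 0.915 FPKM in dsFactin and 4.63 ± 1.34 FPKM in dsNC (log2 -0.12, 0.15 after median-ratio rescaling and 0.16 once quantile-normalized). The other two, a dorsalin hit and a further tolloid hit, were below dsNC in every dsFactin library at means under 2 FPKM. Leaving all 6 out, a choice made after the values were seen, left 115 members with a median of -0.28 and 0 passing.

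Members also differed by level and by length. Of the 15 members with a mean of at least 50 FPKM, 10 were at higher values in dsFactin and their median was 0.08, beside 1435 of 2399 genes and a median of 0.09 over all genes at that level. Of the 48 members between 1 and 5 FPKM, 38 were at lower values and the median was -0.35. Over all genes at that level, 16672 of 21580 were at lower values and the median was -0.36. Of 27 members of at least 3000 bases, 25 were at lower values, beside 4910 of the 5949 tested genes of that length. All dsFactin libraries lay below dsNC in 74.1% of the 27, against 44.7% of the 5949 genes. The 27 were 12 Toll and TIR clusters, 8 thioester clusters, 3 of the other dorsal rows, 2 Spaetzle and 2 fibrinogen-related clusters, with medians of -0.60 over the 27 and -0.31 over all genes of that length. The length limit was chosen after the values were seen. Estimated fragments also set a limit: 29 of the 114 members of at least 400 bases had fewer than 10 fragments in at least 1 library, and 7 members were shorter than that, where FPKM rests on few positions.

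One dsFactin library differed from the other pair in several members, as it did among all genes tested. In 14 members dsFactin replicates 1 and 3 lay below all dsNC libraries and replicate 2 did not (11.6% of members, against 12.8% of all genes), and in 8 members replicates 1 and 3 lay above all dsNC libraries and replicate 2 did not (6.61%, against 3.62%). For replicate 1 as the library apart these counts were 9 (7.44%, against 8.29% of all genes) and 0 (against 2.18%). For replicate 3 they were 3 (2.48%, against 4.25%) and 2 (1.65%, against 2.27%). Without replicate 2, 5 members passed, all lower in dsFactin (1.89% of all genes then passed as lower and 0.551% as higher). These were PGRP Cluster-8110.31183, lysozyme Cluster-8110.36540, Tollo Cluster-8110.36207 and the zinc finger Cluster-8110.41502, with values above, and techylectin-5A Cluster-8110.45661. The last was at 2.1, 25.3 and 4.5 FPKM in dsFactin and 18.8, 12.3 and 23.8 FPKM in dsNC. Its log2 difference was -1.29 ± 0.77 with all libraries and -2.18 ± 0.36 without replicate 2 (adjusted p = 0.0491). Leaving out any other library let 0 members pass. In each of the 5, replicate 2 held the highest dsFactin value, so leaving it out lowers the dsFactin mean by construction. The p-values without it therefore give no separate support. The cuticle and epidermis markers were lowest in this same library, at 8675 FPKM against 18718 and 29676 FPKM in dsFactin replicates 1 and 3, while yolk and lipid carrier markers (28299 against 17708 and 20027 FPKM), venom gland markers (54240 against 44857 and 42163 FPKM) and midgut digestion markers (1483 against 928 and 1002 FPKM) were the highest of the 3 dsFactin libraries in it. Haemocyte and haemolymph, muscle and silk gland markers in replicate 2 (52694, 5803 and 20832 FPKM) lay between those of dsFactin replicates 1 and 3. The part of these marker levels in the members was not tested.

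**Figure D4:**
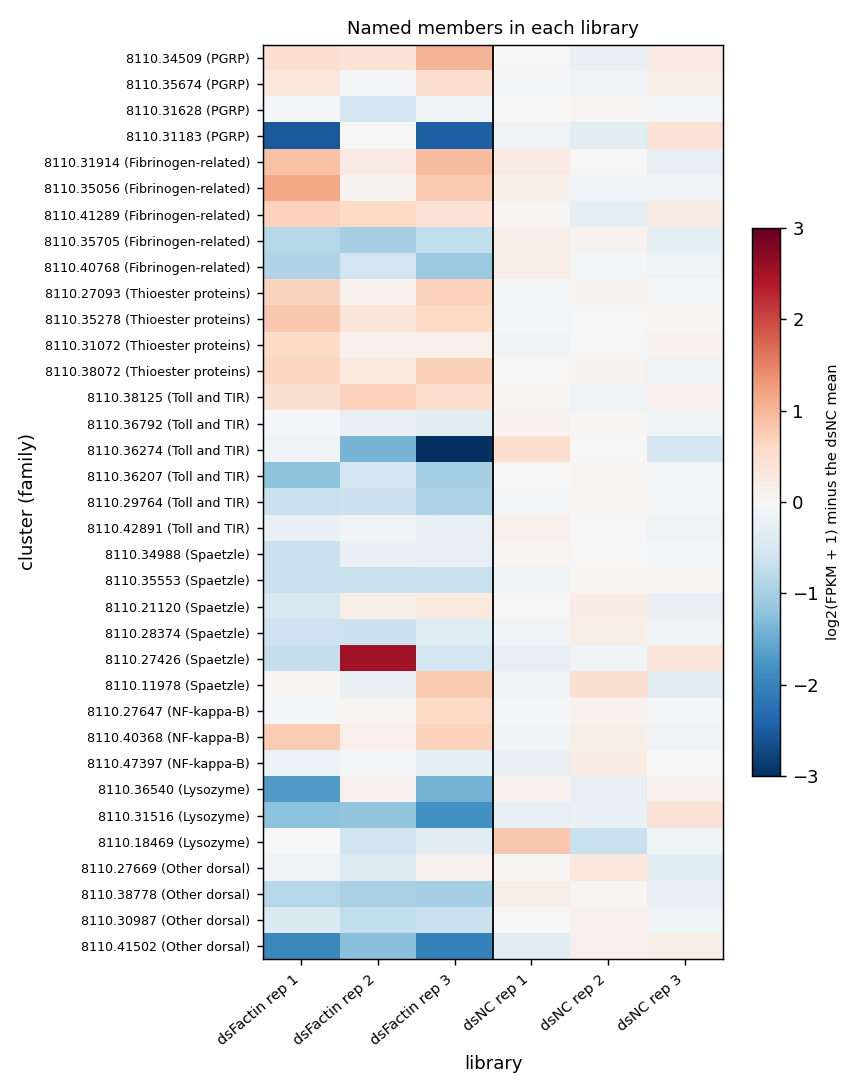
Log2(FPKM + 1) of the 35 members named by rule, minus the dsNC mean, in each library, dsFactin left and dsNC right of the black line (red above and blue below the dsNC mean, colours cut at 3). Cluster-8110.31183 and Cluster-8110.36540 are blue in dsFactin replicates 1 and 3 and pale in replicate 2, while Spaetzle 4, Cluster-8110.27426, is red in replicate 2.

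Other genes of the immune pathways were counted in the same fit, and none passed. Of 18 further Toll and IMD signalling genes, 0 passed in either direction and 1 had an unadjusted p under 0.05 (5.56%, against 19.3% of all genes). All dsFactin libraries lay above dsNC in 1 of the 18 (5.56%, against 5.98% of all genes) and below in 5 (27.8%, against 21.5%). The NF-kappa-B inhibitor cactus, Cluster-8110.41399, was at 15.4 ± 2.1 FPKM in dsFactin and 16.7 ± 1.36 FPKM in dsNC (SD, n = 3, log2 -0.12, 0.19 after median-ratio rescaling, named after its values were seen). Toll-interacting protein, Cluster-8110.30364, which dampens receptor signalling in vertebrates, was the most abundant at 75, 75.2 and 82.5 FPKM in dsFactin and 70, 70.2 and 68.2 FPKM in dsNC (log2 0.16 ± 0.10, SE, adjusted p = 0.452). A second such hit, Cluster-8110.13656, was below dsNC in every dsFactin library, at 0.913 ± 0.341 against 1.84 ± 0.472 FPKM (SD, n = 3, log2 -0.57). An NF-kappa-B p105 subunit hit, Cluster-8110.39513, overlapped between groups (log2 -0.38 ± 0.23, SE, adjusted p = 0.421). Both were named after their values were seen. A cactin hit, Cluster-8110.37639, was at 17 ± 3.77 FPKM in dsFactin and 22.5 ± 2.66 FPKM in dsNC (SD, n = 3). Of 6 JAK/STAT genes, 0 passed and 2 had an unadjusted p under 0.05, both lower (33.3%, against 14.8% of all genes). The factor STAT, Cluster-8110.39593, was at 9.73, 9.73 and 9.53 FPKM in dsFactin and 12.2, 13.1 and 11.9 FPKM in dsNC (log2 -0.33 ± 0.12, adjusted p = 0.228). A suppressor of cytokine signaling 7 hit, Cluster-8110.35191, was at 9.84, 9.69 and 12.7 FPKM in dsFactin and 9.13, 9.32 and 6.94 FPKM in dsNC (adjusted p = 0.405).

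Of 68 further recognition and uptake genes, 49 had a Down syndrome cell adhesion molecule hit, an immunoglobulin-type cell surface family, so the list's values are mostly theirs. None of the 68 passed, 5 were higher (7.35%, against 4.53% of all genes) and 14 lower (20.6%, against 14.8%) at an unadjusted p under 0.05, and the median was -0.33, against -0.27 over all genes. The most abundant, a galectin, Cluster-8110.34213, of the lectins that bind galactosides, was at 184, 189 and 201 FPKM in dsFactin and 246, 355 and 312 FPKM in dsNC (log2 -0.65 ± 0.16, adjusted p = 0.109). Another galectin, Cluster-8110.32987, was at 96.3, 91.6 and 102 FPKM in dsFactin and 71.8, 64.3 and 73.1 FPKM in dsNC (log2 0.47 ± 0.11, adjusted p = 0.106). Of the 5 galectin hits, 4 were at higher and 1 at lower values in dsFactin. All dsFactin libraries lay above dsNC in 2 (5.98% of all genes) and below in 1 (21.5%), and 2 overlapped. Among all genes with a mean of at least 50 FPKM, 31.5% lay above and 16.3% below. The list's smallest adjusted p, 0.0642, belonged to a scavenger receptor class B hit, Cluster-8110.38516, of the receptors that bind lipoproteins, at 106, 78.7 and 92.4 FPKM in dsFactin and 50.8, 45.5 and 52.6 FPKM in dsNC (log2 0.87 ± 0.14, named after its values were seen). Of 8 peptide genes, all with a defensin as Swissprot hit, 0 passed and 0 had an unadjusted p under 0.05 (against 19.3% of all genes). Cluster-11582.0, Cluster-8110.53094, Cluster-8110.21136 and Cluster-8110.39051 have Av-LCTX-An1a of the spider Alopecosa nagpag as best hit. They are defensins by Swissprot hit only. Defensin Cluster-8110.33954 was at 181, 85.4 and 218 FPKM in dsFactin and 134, 113 and 118 FPKM in dsNC, and defensin Cluster-8110.26570 at 16.3, 161 and 11.3 FPKM in dsFactin and 40.5, 35.3 and 138 FPKM in dsNC. In both, dsFactin replicate 2 differed from replicates 1 and 3, downward in the first and upward in the second.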

How the data were processed

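The labels' protocols name an RNeasy kit for extraction and a SMARTER kit for the libraries. The authors deposited 1 table of FPKM values, rounded to 2 decimals, with a length, Pfam domains and best protein hits per cluster. The submitters' processing notes list the build mm10, a mouse build that the cluster names do not carry, so no coordinates are given. No source used here names the assembler, aligner or counter. No sequences of these clusters were available to print in the files used here.

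Values were analysed as log2(FPKM + 1), which understates changes of low genes. The fit was made by limma 3.58.1 (R 4.3.3) over every gene past the level filter, with a two-sided test, a trend of variance with level, Benjamini-Hochberg adjustment and a threshold of 0.05. Fragments were estimated from the spacing of low values in short clusters, of which 99.6 to 99.7% came within 0.1 of a whole fragment. A count of 3 fragments on 1000 bases equals 0.234 to 0.277 FPKM, for counting error only. When 100 genes were changed 2-fold and 100 others 8-fold in simulated libraries of the dsFactin against dsNC comparison (53182 genes, changes placed in genes of at least 5 FPKM), 14 and 80 were called, with 5 false calls.

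The members and lists were chosen with earlier results of these data known. The rule named members that passed, in each family the 3 most abundant and the 2 of smallest p at a mean of at least 1 FPKM, and each Spaetzle, MyD88 and NF-kappa-B member at that mean, 35 in all. Other members were named after their values were seen. In the other pathway lists the 2 most abundant genes were named. Alternatives were a pseudocount of 0.1, other filters, median-ratio rescaling, quantile normalization, no trend, array weights, a replicate block, each library left out, and other choices of members. Silk, venom and digestive markers summed to 18091 to 25882, 42163 to 54240 and 928 to 1483 FPKM in dsFactin, and to 17470 to 21148, 30191 to 42168 and 1002 to 2021 FPKM in dsNC. Of the 159 venom gland clusters, 95 were at lower values in dsFactin (median log2 -0.36), so the venom sums do not describe most of that list.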

Additional observations from a re-analysis of the deposited data

How the results depend on the processing

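The number of all genes passing was 264 in the fit as reported. It was 117 with no filter, 781 at a mean of at least 5 FPKM (246 higher, 535 lower), 115 after median-ratio rescaling, 174 with no trend and 702 with array weights, and it ran from 33 without dsNC replicate 2 to 1297 without dsFactin replicate 2. Quantile normalization gave 67 higher and 176 lower, against 41 higher and 223 lower as reported. Same-numbered libraries did not deviate together (correlations 0.099, -0.108 and -0.153). With 3 libraries per group these values cannot decide whether the numbers mark a pairing, which the labels do not say. The replicate block gave 17 genes and 0 members.

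The number of members passing was 0 as reported, 3 at a mean of at least 5 FPKM, 1 with array weights and 0 to 5 with a library left out, the 5 being without dsFactin replicate 2. The other alternatives gave 0. The member median of -0.29 was -0.47 with a pseudocount of 0.1, -0.21 at a mean of at least 5 FPKM, -0.02 after quantile normalization and -0.06 after median-ratio rescaling.

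Some named members changed sign, and the cause was not tested. After median-ratio rescaling, Cluster-8110.31628 was at 0.08, Cluster-8110.36792 at 0.11, Cluster-8110.42891 at 0.07, Cluster-8110.21120 at 0.27, Cluster-8110.47397 at 0.05 and Cluster-8110.27669 at 0.15. After quantile normalization, Cluster-8110.42891 was at 0.13, Cluster-8110.18469 at 0.02, Cluster-8110.21120 at 0.27, Cluster-8110.47397 at 0.16 and Cluster-8110.27669 at 0.16. With a library left out, Cluster-8110.18469 ran from -0.64 to 0.10, Cluster-8110.21120 from -0.15 to 0.23, Cluster-8110.27426 from -0.64 to 0.98, Cluster-8110.11978 from -0.09 to 0.43 and Cluster-8110.27669 from -0.31 to 0.04. Depth limits the 29 members with under 10 fragments in a library.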
